A study of Mus musculus with 13 samples.

Results

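Livers of mice with a glutamate in place of threonine 522 of SIRT1 (TEKI) were compared with livers of mice with an alanine at the same place (TAKI). SIRT1 is an NAD-dependent deacetylase that acts on histones and on transcription factors and co-activators of energy metabolism, and it is best known in liver for its ties to fatty acid oxidation, gluconeogenesis, sterol metabolism and NF-kappaB signalling. Threonine 522 is a phosphorylation site: alanine cannot be phosphorylated, and glutamate carries a negative charge that is used to mimic a phosphate. The question put to the liver was therefore how the same residue, locked in its unphosphorylated or its phosphate-like form, goes with gene expression under a dietary load. The series holds 13 single-colour arrays of 3 genotypes, each from the liver of 1 male C57BL/6 mouse fed a western-type diet rich in fat over 5 months. The comparison used 8 of them, TEKI 1 to 3 and TAKI 1 to 5, and the 5 wild-type (WT) arrays served as a reference only. All 3 genotypes shared strain, sex and diet, so no mouse on a control diet stands behind these values. The substitutions were knocked into the germ line, so they were present in every cell of the liver and in every other organ.

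The genes compared were filtered by signal and by number of probes. The filter itself did not use the difference between genotypes, but it was chosen with earlier results of these data known. A gene name of the array design was kept where at least 2 of its probes were marked well above background on all 8 arrays, and those probes were averaged. This left 5155 of 27962 gene names, measured by 12109 probes: 3746 genes had 2 probes and 1409 had 3 or more, up to 6. A gene near background in 1 genotype was left out, so a strong loss there would be missed. Levels are log2 of the processed signal minus the 75th percentile of the array, so a level of 0 is the signal at that percentile, and genes with a mean level of 0 or higher are called bright here (2281 genes). Levels of different genes are not compared, because each probe binds with its own strength. A difference is the TEKI mean minus the TAKI mean on this log2 scale, so 1 stands for a doubling.

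Array TEKI 1 stood apart before any gene was considered. The scanner marked 86.8% of its spots as well above background, against 60.5% to 73.1% on the other 12 arrays, and 87 of its spots as non-uniform, against 1 to 6. Its bright probes lay close to those of the other arrays (median deviation -0.04), but its probes at a level below -2 lay 0.47 higher, so the counts of calls and most of the list medians are also given without it. The TEKI arrays shared 1 slide with WT 5, and the TAKI arrays lay on 2 other slides. Among these 8 arrays the slide and the genotype cannot be told apart. The local background was 78 to 90 on the TEKI arrays and 50 to 60 on the TAKI arrays (exact permutation test, two-sided, p = 0.0179, the smallest that 56 groupings allow). That test takes the 8 arrays as independent although the TEKI arrays shared a slide, so it cannot part genotype from slide. Wild type 5, on the TEKI slide, read 63, and the other 4 wild-type arrays read 53 to 81.5. Of the hepatocyte markers on the array, all 27, *Alb*, *Apob* and *Hnf4a* among them, had a probe above background on all 8 arrays, as did 36 of 38 macrophage markers, *Clec4f* and *Timd4* of Kupffer cells included. Of 18 skeletal muscle markers, 9 had such a probe, *Myh2* and *Tnnt3* among them but not *Ckm*, *Acta1* or *Mb*. Of 15 adipose tissue markers, 9 had one, *Plin1* and *Fabp4* among them but not *Adipoq* or *Lep*. The part of such other cells in the results was not tested.

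With all 8 arrays, 16 of the 5155 genes passed the test (limma with Benjamini-Hochberg adjustment, adjusted p under 0.05), which is 0.31% of those tested; 12 were higher in TEKI (0.233%) and 4 lower (0.0776%), and 385 (7.47%) had an unadjusted p under 0.05. Adjusted p-values ran from 0.00932 to 0.0455. For all 16 the TEKI and TAKI arrays did not overlap, which held for 277 (5.37%) of all genes tested, with TEKI higher in 3.55% and lower in 1.82%. Without TEKI 1 the test called 11 genes (0.213%), 4 higher (0.0776%) and 7 lower (0.136%), with 6.42% at an unadjusted p under 0.05; 7 genes were called both ways, and all 16 kept their direction. No gene of the metabolic, immune and cell type lists was among the 16. The lists held 476 tested symbols. With 0.31% of all genes called, few calls would fall among them, so their absence says little about the lists. All 16 were dim, with mean levels between -3.76 and -0.49. No bright gene was called (0 of 2281 by limma, with 130, or 5.7%, at an unadjusted p under 0.05; without TEKI 1 0 by limma, with 88, or 3.86%).

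The calls depended on single mice. Without TEKI 3 no gene passed by limma (0, with 314 at an unadjusted p under 0.05), without TAKI 4 or without TAKI 5 4 did, without TEKI 2 9 and without TAKI 1 10. With median in place of 75th-percentile scaling, which moved the median of all genes from 0.03 to -0.22, 7 genes passed, 1 higher and 6 lower.

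Because the calls rest on pairs of short probes, the probes of 3 called genes are shown first: one pair that moved together, one that overlaps in sequence and one that disagreed. Each line gives the first 30 of 60 bases, 5′ to 3′, at the mm7 positions of the array design; capitals mark bases that a probe shares with its partner. Which exon or untranslated region each lies in was not analysed here.

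Arhgap33 probe 1, chr7:27463815-27463874, minus strand: tcctccttaccccacacccagctggtcctt
Arhgap33 probe 2, chr7:27473341-27473400, minus strand: cgttctctggatgcccatctccaccggtgc
Tmem210 probe 1, chr2:25295792-25295851, plus strand: gctggcTGGTGTCAGTGCCAGCTGCTTCTG
Tmem210 probe 2, chr2:25295782-25295841, plus strand: tcattgtggtgcagaaTGGTGTCAGTGCCA
Cadm3 probe 1, chr1:173308347-173308406, minus strand: ctcccacacagtgaatgaagctaggctctt
Cadm3 probe 2, chr1:173307120-173307179, minus strand: cgcttttggggaaacaacttttcctcttcg

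*Arhgap33*, which encodes a GTPase-activating protein of the sorting nexin family, was the clearest case of agreement. Its levels were -2.04, -2.36 and -2.15 on TEKI 1, 2 and 3, and -3.42, -3.42, -3.12, -3.48 and -3.24 on TAKI 1 to 5. The lowest TEKI array lay above the highest TAKI array, a difference of 1.15 ± 0.12 (SE; adjusted p = 0.00932), or 2.22-fold. Its 2 probes share no run of over 5 bases and differed by 1.06 and 1.25. Without TEKI 1 the difference was 1.08 (adjusted p = 0.0367).

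*Tmem210*, which encodes a transmembrane protein, was lower in TEKI. TEKI levels were -2.82, -3.46 and -3.07 and TAKI levels -1.68, -1.71, -1.38, -1.79 and -1.53, a difference of -1.50 ± 0.15 (adjusted p = 0.00932; without TEKI 1 -1.65, adjusted p = 0.0094). The 2 probes share a run of 44 bases and differed by -1.87 and -1.13, so they are not independent readings of the transcript. On probe 2 the array TEKI 1 lay within the TAKI range (-1.73). All 5 wild-type arrays, at -3.21 to -2.45, lay below all TAKI arrays.

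*Cadm3*, which encodes a cell adhesion molecule, shows the opposite arrangement. Its gene-level values were -2.31, -2.45 and -2.42 in TEKI and -1.76, -1.73, -1.51, -1.67 and -1.61 in TAKI, a difference of -0.74 ± 0.09 (adjusted p = 0.0157; without TEKI 1 -0.78, adjusted p = 0.0386). Probe 2 differed by -1.81, while probe 1, on the same strand, differed by 0.34 the other way. The called difference of this gene is therefore carried by 1 of its 2 probes.

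That was the usual arrangement among the 16. Every probe separated the groups in 3 genes, *Arhgap33*, *Vac14* and *Ppp1r13l*. The most different probe of each gene differed by a median of 1.82 in size, and the 17 other probes by a median of 0.19 in the direction of their gene; 13 of the 17 had that direction and 4 separated the groups. *Vac14*, a scaffold of the complex that makes phosphatidylinositol 3,5-bisphosphate, had the largest difference of the calls higher in TEKI, 1.45 ± 0.15 (2.73-fold, adjusted p = 0.00932). Its levels were -0.10, -0.53 and -0.25 in TEKI and -1.36, -1.80, -1.90, -1.68 and -1.96 in TAKI, and its probes differed by 2.45 and 0.45. *Ppp1r13l*, which encodes the p53-binding inhibitor iASPP, differed by 1.08 ± 0.13 (adjusted p = 0.0157), with 1.03 and 1.13 at its probes and levels of -1.16, -1.40 and -0.88 against -2.37 to -2.09.

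Among the other calls, *Ppp1r12b*, a myosin phosphatase targeting subunit, had TEKI levels of -1.76, -2.12 and -2.15 and TAKI levels from -3.33 to -2.92 (1.04 ± 0.13, adjusted p = 0.0157), with probes that differed by 2.18 and -0.10. *Mark4*, a microtubule affinity-regulating kinase, had levels of -0.78 to -0.61 in TEKI and -1.70 to -1.20 in TAKI (0.79 ± 0.12, adjusted p = 0.04; probes 1.46 and 0.11). *Pde2a*, a cyclic nucleotide phosphodiesterase, differed by 0.74 ± 0.11 (adjusted p = 0.04; probes 1.22 and 0.26). In all 3 the TEKI and TAKI arrays were apart, and the second probe was near 0 or well short of the first.

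The other calls higher in TEKI were *Uhrf1bp1* (1.23 ± 0.19), *Prh1* (1.13 ± 0.16; its name is that of a salivary proline-rich protein), *R3hcc1l* (0.98 ± 0.13), *Mier2* (0.83 ± 0.13), the palmitoyltransferase *Zdhhc8* (0.79 ± 0.13) and *B230354K17Rik* (0.74 ± 0.12). Of these, *Mier2* came nearest to the bright range, at -0.05, -0.04 and 0.17 in TEKI and -0.99 to -0.57 in TAKI. The other 2 calls lower in TEKI were *Ccdc189* (-0.87 ± 0.11, probes -2.16 and 0.41) and the deubiquitinase *Usp32* (-0.75 ± 0.11, probes -1.45 and -0.04). Without TEKI 1, 7 of the 16 calls still passed: *Arhgap33*, *Vac14*, *Ppp1r13l* (adjusted p = 0.0478), *Ppp1r12b* (adjusted p = 0.0422), *Ccdc189*, *Tmem210* and *Cadm3*. The other 9 did not: *Uhrf1bp1* (0.97, adjusted p = 0.0541), *Prh1*, *Usp32*, *Pde2a*, *R3hcc1l*, *Mier2*, *B230354K17Rik*, *Mark4* (0.75, adjusted p = 0.115) and *Zdhhc8* (0.78, adjusted p = 0.129), all in the same direction as with all 8 arrays. Genes just short of the threshold were *Specc1* (-0.65, adjusted p = 0.0564), the ryanodine receptor *Ryr3* (-1.27, adjusted p = 0.0596), *Arhgef18* (-0.64, adjusted p = 0.0596) and the histone demethylase *Kdm2b* (1.07, adjusted p = 0.08); none passed with all 8 arrays. Without TEKI 1 *Ryr3* passed (-1.57, adjusted p = 0.0094), and its 2 probes differed in the same direction (-1.44 and -1.11 with all arrays). Among these 4, *Kdm2b* was the most uneven, with probes that differed by 3.20, 0.05 and -0.04.

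**Figure D1:**
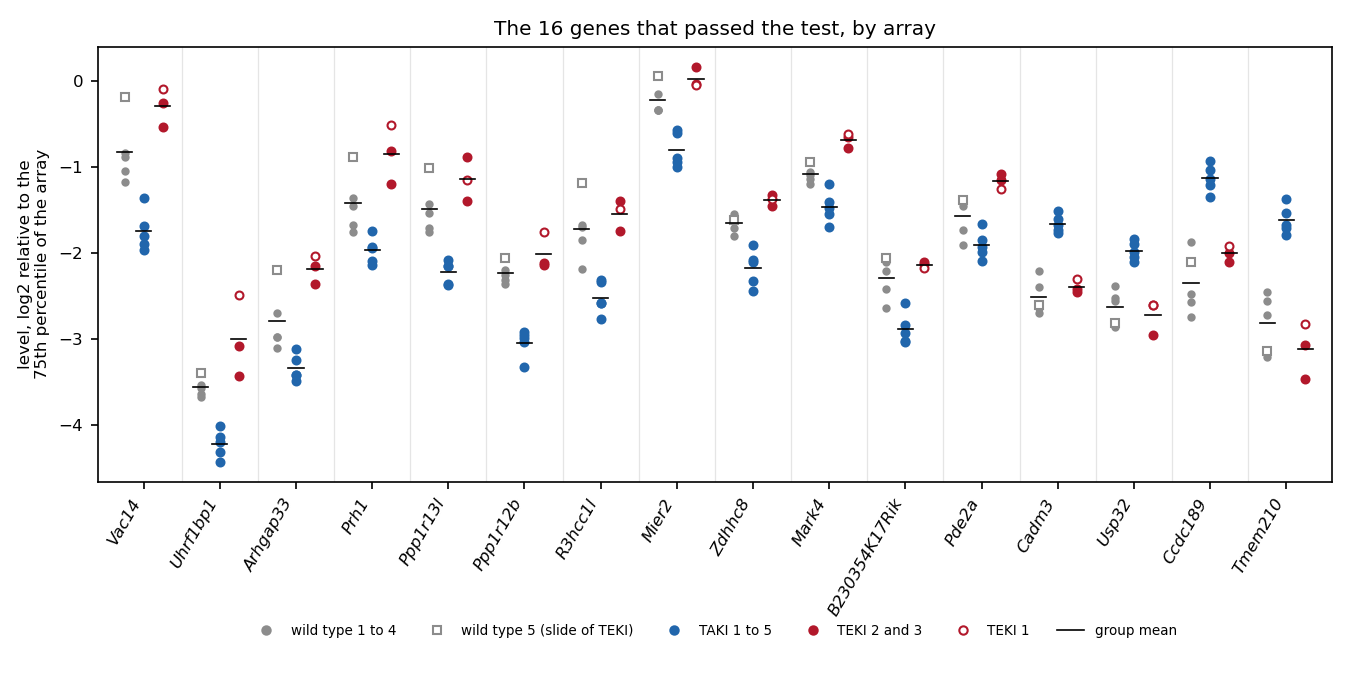
Levels of the 16 called genes (log2 above or below the array's 75th percentile, y axis) on each array: wild type in grey, TAKI in blue, TEKI in red, with a black bar for each group mean; TEKI 1 and wild type 5 are open symbols. For every gene the 3 TEKI arrays and the 5 TAKI arrays are apart, and the wild-type mean lies nearer the TEKI mean for 12 of the 16.

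Position on the array and slide moved with these calls. The most different probe of all 12 genes called higher in TEKI lay in rows 394 to 514 of 532, and that of all 4 genes called lower in rows 23 to 140. Over all dim probes of the genes tested (6535, 49.98% of them in rows 1 to 266), 99 were higher in TEKI by over 1 and 83 of these lay in rows 267 to 532, while 44 were lower by over 1 and all 44 lay in rows 1 to 266. Bright probes rarely differed this far: 3 of 5574 were higher by over 1 and 5 lower. Wild type 5, on the slide of the TEKI arrays, lay from the other 4 wild-type arrays toward TEKI at 15 of the 16 most different probes, by a median of 0.70, and at 83 of the 99 and 34 of the 44 dim probes. The share over all probes of the genes tested was not counted. With the median of each of 19 bands of rows removed 15 genes passed. Those medians were taken over all probes above background, bright and dim together. The median difference of such probes was 0.05 in rows 1 to 266 and 0.03 in rows 267 to 532. The step therefore could not remove shifts of over 1 in a small part of the dim probes. How much of the 16 calls goes with the slide cannot be told apart from the genotype.

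Among genes with probes in both parts of the rows (2993), 4 passed, 3 higher and 1 lower. Among genes with 3 or more probes (1409), none passed by limma, with 87 at an unadjusted p under 0.05.

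**Figure D2:**
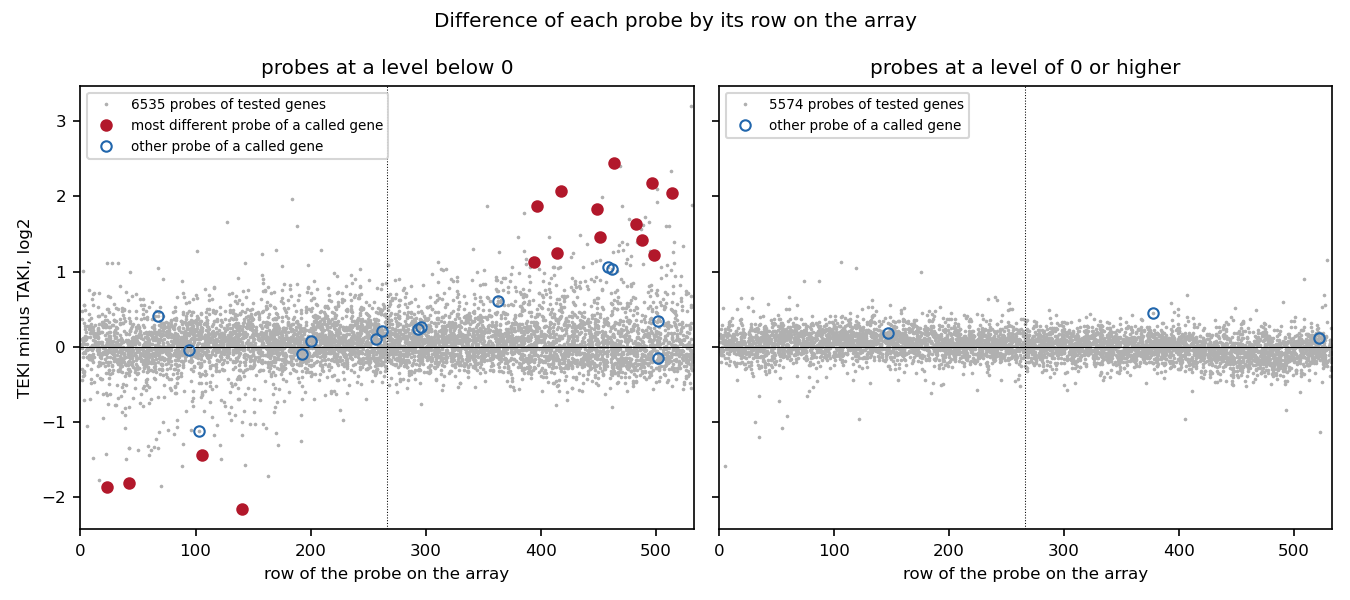
TEKI minus TAKI difference (log2, y axis) of each probe of the genes tested against its row on the array (x axis), for probes at a level below 0 (left) and of 0 or higher (right); filled red points are the most different probe of each called gene, open blue points its other probes, and the dotted line parts rows 1 to 266 from rows 267 to 532. The red points above 0 all lie in rows 394 to 514 and those below 0 in rows 23 to 140.

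Bright genes varied little between the groups. Their differences ran from -0.22 at the 5th percentile to 0.28 at the 95th, the median half-width of a 95% interval was 0.26, and 1 bright gene, *Id1*, differed by over 1. A test used simulated data with the spread of these 5155 genes, of which 200 were changed. It recovered 91% of changes of 1 and 47% of changes of 0.5 with all 8 arrays, and 83% and 22% without TEKI 1. Its noise was independent between arrays and held no slide or row effect. These shares therefore do not give the power on the real arrays, where few genes passed. Of the 130 bright genes at an unadjusted p under 0.05, 90 were higher in TEKI and 40 lower. Adjustment over bright genes alone also gave no call (lowest adjusted p 0.812).

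The bright gene of smallest p was *Fem1a*, which encodes a substrate receptor of a cullin ubiquitin ligase. It read 0.80, 0.36 and 0.66 in TEKI and -0.25, -0.43, -0.15, 0.24 and -0.27 in TAKI, so the groups did not overlap, with a difference of 0.78 ± 0.16 (adjusted p = 0.147; without TEKI 1 0.68). Its probes are designed to different chromosomes, 17 and 11, and differed by 0.10 at a mean TEKI level of 3.83 and by 1.46 at -2.62. *Fem1a* was called by limma with slide as a random block (adjusted p = 0.031) and with normexp background (adjusted p = 0.0316). The fitted correlation within a slide was -0.18, and each slide held 1 genotype. The block therefore could not take out a slide effect.

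The other bright genes named by the rule follow; groups did not overlap for 111 (4.87%) of all bright genes, with TEKI higher in 3.29% and lower in 1.58%. At 15 of the 16, wild type 5, on the TEKI slide, lay from the other 4 wild-type arrays toward TEKI, by a median of 0.27. The share of all bright genes at which it did so was not counted, so the 15 of 16 has no reference. *Slc2a8*, the glucose and fructose transporter GLUT8, read 0.59, 0.66 and 0.61 in TEKI and 0.34, 0.31, 0.11, 0.03 and 0.14 in TAKI (0.44 ± 0.10, adjusted p = 0.225). All 3 TEKI arrays lay above all 5 TAKI arrays, with wild type at 0.28 to 0.60. *Rmnd1*, needed for mitochondrial translation, read 2.83 to 2.96 against 2.50 to 2.63 (0.32 ± 0.08, adjusted p = 0.337), and *Gadd45gip1*, which encodes the mitochondrial ribosomal protein CRIF1, 0.24 to 0.53 against -0.07 to 0.18 (0.34 ± 0.10). The lactate dehydrogenase for the D form, *Ldhd*, read 2.17, 2.13 and 2.51 against 2.12, 1.60, 1.68, 1.51 and 1.57 (0.57 ± 0.16, adjusted p = 0.38); TAKI 1 lay just under the lowest TEKI array.

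*Pigt*, a subunit of the transamidase that attaches GPI anchors, read 4.21, 3.94 and 4.54 in TEKI and 3.79, 3.59, 3.54, 3.16 and 3.33 in TAKI (0.74 ± 0.17, adjusted p = 0.24). A probe of *Pigt* was saturated on at least 1 array, and its probes differed by 0.21 and 1.28. *Pmm1*, a phosphomannomutase that feeds the same glycan precursors, read 1.62 to 1.89 against 0.89 to 1.61 (0.56 ± 0.16). The linker histone *H1f10* (0.63 ± 0.19), the sorting nexin *Snx21* (0.41 ± 0.12), the meiotic cohesin *Rec8* (0.42 ± 0.11), the amino acid transporter *Slc38a10* (0.33 ± 0.09), *Gatd3a* (0.30 ± 0.09) and *Fahd2a* (0.29 ± 0.08) were also higher in all 3 TEKI arrays than in all 5 TAKI arrays, with adjusted p between 0.364 and 0.444.

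Of these 16 bright genes 3 were lower in TEKI. *Unc93b1*, the chaperone that carries nucleic acid-sensing Toll-like receptors to endosomes, read 1.53, 1.34 and 1.23 in TEKI and 1.59, 1.99, 2.06, 1.78 and 1.92 in TAKI (-0.50 ± 0.13, adjusted p = 0.331; without TEKI 1 -0.58, adjusted p = 0.274). *Tmem30b*, a subunit of phospholipid flippases, read -0.26 to -0.16 against -0.07 to 0.48 (-0.51 ± 0.13), and *Kpnb1*, importin beta, 1.31 to 1.45 against 1.63 to 1.76 (-0.28 ± 0.08). In wild type *Unc93b1* read 1.01 to 1.53, below all TAKI arrays, and *Kpnb1* 1.51 to 1.85, above all TEKI arrays.

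**Figure D3:**
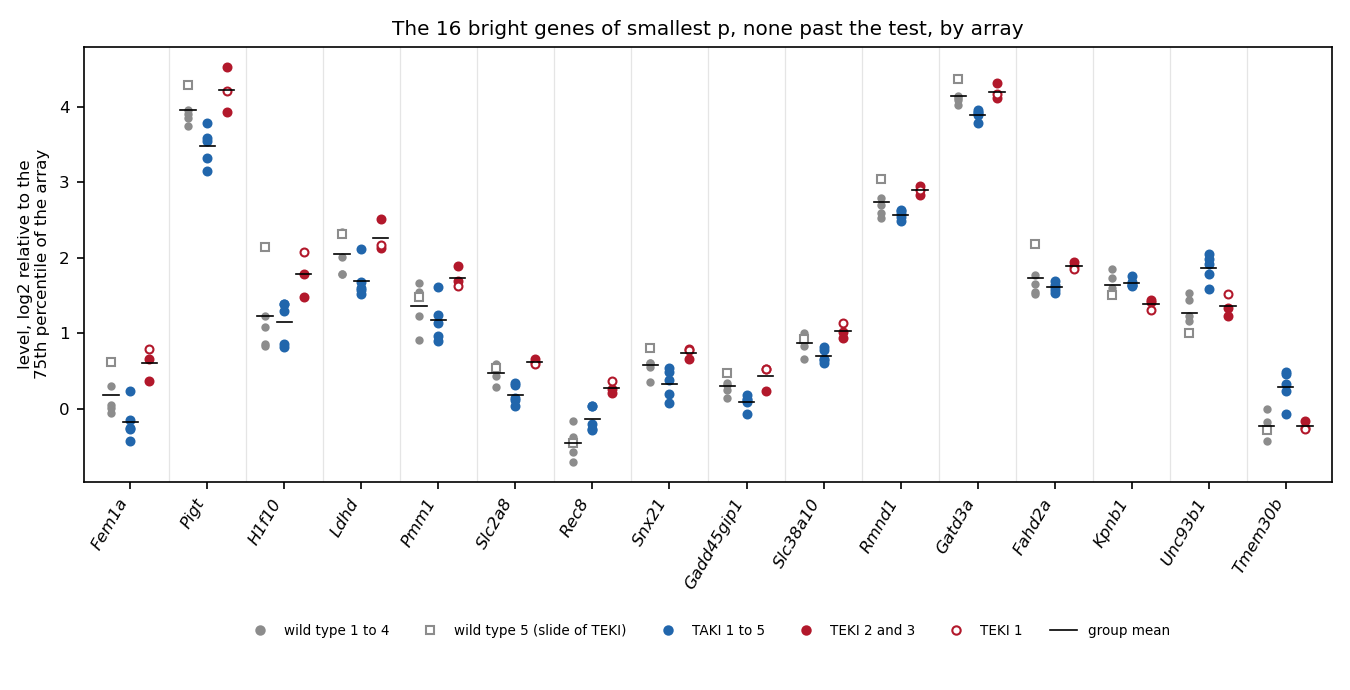
Levels of the 16 bright genes of smallest p among those whose groups did not overlap (log2 above or below the array's 75th percentile, y axis) on each array, with wild type in grey, TAKI in blue, TEKI in red and a black bar for each group mean; TEKI 1 and wild type 5 are open symbols. The TEKI and TAKI arrays are apart for all 16, and none passed the test (adjusted p 0.147 to 0.453).

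*Sirt1* itself was measured by 2 probes. It read -0.39, -0.60 and -0.21 in TEKI and 0.05, -0.53, -0.14, -0.35 and -0.17 in TAKI, and -0.51 to -0.24 in wild type, so the groups overlapped (-0.17 ± 0.15, adjusted p = 0.768, 95% interval -0.50 to 0.16). The probes read the amount of transcript and not residue 522, so they do not check the labels. Of the other NAD and sirtuin genes, 10 tested in all with *Sirt1*, none passed and 4 were above 0 (median -0.03; -0.0023 without TEKI 1). Among the 8 bright genes of that list the median was 0.04 (0.07 without TEKI 1), with 4 above 0. *Nampt*, the rate-limiting enzyme of NAD salvage, read 0.42, 0.36 and 0.11 in TEKI and 0.39, 0.36, 0.69, 1.06 and 0.98 in TAKI (-0.40 ± 0.18, adjusted p = 0.662). TAKI 1 and 2 lay among the TEKI arrays. *Ppargc1a*, which encodes the SIRT1 substrate PGC-1alpha, read 0.13 to 0.21 against -0.25 to 0.20 (0.13 ± 0.11; -0.12 with median scaling).

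The medians of the metabolic lists ran from -0.31 (ketone body production, 3 genes) to 0.35 (LXR targets, 2 genes), beside 0.03 for all genes tested (0.00 without TEKI 1). None had a called member, against 0.31% of all genes. Cholesterol synthesis and uptake lay highest of the lists with over 10 genes tested when all 8 arrays were used: 15 of 16 genes were above 0, with a median of 0.20 (16 of 16 and 0.28 without TEKI 1), against 2948 of 5155 genes above 0 in all. Drug-metabolising P450s, with 14 genes tested, lay close to it (0.19). With median scaling the median of the cholesterol list was -0.06, beside -0.22 for all genes. On single arrays the cholesterol list stood at 0.08, 0.22 and 0.29 in TEKI, relative to the TAKI mean of each gene. It stood at -0.17 to 0.15 in TAKI and -0.05 to 0.19 in wild type, so the groups overlapped. This pathway turns acetyl-CoA into cholesterol, and its genes are known to be driven together by SREBP2, which works with NF-Y at CCAAT boxes of their promoters.

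Within the pathway, *Fdps*, farnesyl diphosphate synthase, read -0.12, -0.65 and -1.01 in TEKI and -1.40, -1.10, -1.78, -1.56 and -0.95 in TAKI (0.77 ± 0.23, adjusted p = 0.465), and *Mvk*, mevalonate kinase, -1.22, -1.16 and -1.48 against -1.97, -1.48, -2.03, -1.91 and -1.76 (0.54 ± 0.14, adjusted p = 0.348). In both genes 1 TEKI and 1 TAKI array overlapped or met. *Insig1*, which holds SREBP2 in the endoplasmic reticulum when sterols are plentiful, read -1.43, -1.49 and -1.41 against -2.06 to -1.64, with no overlap (0.38 ± 0.11, adjusted p = 0.414). *Fdps*, *Mvk* and *Insig1* are dim and were picked after their values were seen. The bright *Srebf2* itself read 0.30, 0.35 and 0.71 against 0.13 to 0.46 (0.18 ± 0.12), and *Hmgcs1*, HMG-CoA synthase, 0.42, 0.89 and 1.20 against 0.60 to 0.90 (0.09 ± 0.17).

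The promoters of the cholesterol genes were read in the RefSeq table (GRCm38.p6), which held 11 of the 16. In the 250 bases before the start, on both strands, CCAAT lay in 11 of 11 against 37.5% of the 27025 genes in the table, the E-box CACGTG in 4 (*Dhcr7*, *Hsd17b7*, *Insig1* and *Sc5d*) against 6.86%, and CACCCCAC, a core of the sterol regulatory element, in *Hmgcs1* alone against 2.98%. The motifs do not overlap one another in the stretches printed. A stretch of 120 bases is given for *Hmgcs1* and *Insig1*, with matches in capitals (ATTGG is CCAAT on the other strand).

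Hmgcs1, chr13:119690159-119690278, plus strand: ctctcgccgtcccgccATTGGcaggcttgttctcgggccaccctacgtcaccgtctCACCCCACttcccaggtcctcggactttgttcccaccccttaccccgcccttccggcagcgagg
Insig1, chr5:28071255-28071374, plus strand: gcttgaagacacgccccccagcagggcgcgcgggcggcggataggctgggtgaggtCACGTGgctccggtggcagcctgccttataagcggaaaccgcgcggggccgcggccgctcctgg

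The matches describe letters in a window and show no binding. They come from the reference sequence and do not depend on the arrays. Whether they go with the difference between genotypes was not tested. The 2 genes printed differed unequally between the genotypes, with 0.09 for *Hmgcs1* and 0.38 for *Insig1*.

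In energy production, 18 of 21 oxidative phosphorylation subunits were above 0 with a small median (0.11; 0.15 without TEKI 1; -0.15 with median scaling). The complex III core protein *Uqcrc1* read 5.84, 5.86 and 6.06 in TEKI and 5.74, 5.54, 5.69, 5.46 and 5.59 in TAKI (0.31 ± 0.10, adjusted p = 0.495). All TEKI arrays lay above all TAKI arrays. For fatty acid oxidation 10 of 14 were above 0 (median 0.09; 0.11 without TEKI 1; -0.17 with median scaling; -0.035 without TAKI 2). The peroxisomal thiolase *Acaa1a* read 7.66, 7.84 and 7.86 against 7.61, 7.47, 7.60, 7.35 and 7.27 (0.33 ± 0.11, adjusted p = 0.529), again with no overlap. None of the 14 citric acid cycle genes passed (9 above 0, median 0.05; 0.11 without TEKI 1).

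In lipid storage and synthesis no gene passed, against 0.31% of all genes tested. *Dgat2*, which makes triglyceride, read 5.35, 5.35 and 5.61 in TEKI and 5.05 to 5.29 in TAKI (0.25 ± 0.10, adjusted p = 0.63; -0.0025 with median scaling). *Fasn*, fatty acid synthase, spread from 1.13 to 2.73 within TAKI and lay at 2.23, 2.41 and 2.23 in TEKI (0.29 ± 0.31). *Lpl*, lipoprotein lipase, read 1.62, 2.18 and 1.20 against 1.96, 3.04, 2.60, 2.33 and 2.03 (-0.73 ± 0.28, adjusted p = 0.625). Its TEKI 2 array lay within the TAKI range. *Cyp7a1*, the rate-limiting enzyme of bile acid synthesis, read 1.62, 1.78 and 1.47 against 1.59, 1.05, 0.98, 1.58 and 0.57 (0.47 ± 0.23, adjusted p = 0.668).

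Nitrogen and amino acid genes included *Glul*, the glutamine synthetase of hepatocytes next to the central vein, at 3.34, 3.49 and 3.87 in TEKI and 3.20, 3.21, 3.30, 3.04 and 3.08 in TAKI (0.40 ± 0.13, adjusted p = 0.495; without TEKI 1 0.52, adjusted p = 0.32). The groups did not overlap, and wild type spanned 2.99 to 3.67. *Bckdha*, of branched-chain amino acid breakdown, read 5.20 to 5.49 against 4.86 to 5.16 (0.27 ± 0.11, adjusted p = 0.625), and *Amdhd1*, of histidine breakdown, 2.63 to 3.06 against 3.04 to 3.36 (-0.31 ± 0.13, adjusted p = 0.63). The lists stood at 5 of 7 above 0 for the urea cycle and 12 of 16 for amino acid catabolism (medians 0.05 and 0.16; 0.08 and 0.16 without TEKI 1; -0.20 and -0.09 with median scaling). Without TEKI 3 the urea cycle median was -0.11.

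Among secreted factors, *Fgf21*, a fasting and stress hormone of the liver, read 1.06, 1.77 and 0.66 in TEKI and 1.07, 2.26, 1.76, 1.60 and 1.54 in TAKI (-0.48 ± 0.29, adjusted p = 0.708), and *Angptl6* 2.83 to 3.01 against 2.54 to 2.84 (0.25 ± 0.10; -0.0019 with median scaling). *Slc16a1*, the lactate and ketone transporter MCT1, read 1.51, 1.88 and 1.44 against 1.79 to 2.14 (-0.31 ± 0.13, adjusted p = 0.662). *Id1*, a target of BMP signalling that was listed here with iron handling, read 0.59, 1.09 and -0.01 against 0.85, 1.05, 2.15, 1.87 and 2.08 (-1.04 ± 0.36, adjusted p = 0.533). TAKI 1 and 2, on one slide, lay within the TEKI range of *Id1*, and TAKI 3 to 5, on another, all lay above it. With median scaling *Id1* passed (-1.30, adjusted p = 0.0374).

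Stress and housekeeping lists held no called gene, against 0.31% of all genes tested. The NRF2 and glutathione list had 12 of 18 above 0 (median 0.05; 0.07 without TEKI 1), with *Nfe2l2*, which encodes NRF2, at 0.79 to 1.56 in TEKI and 1.25 to 1.65 in TAKI (-0.30 ± 0.17) and *Gsta3* at 8.17 to 8.25 against 7.86 to 8.13 (0.18 ± 0.09; -0.07 with median scaling). Cytosolic ribosomal proteins had 22 of 37 above 0 (median 0.04; 0.06 without TEKI 1), with *Rps4x* at 2.54 to 2.56 in TEKI and 1.99 to 2.61 in TAKI (0.35 ± 0.14). The unfolded protein list had 5 of 16 above 0 (median -0.02), and 11 of 16 without TEKI 1.

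**Figure D4:**
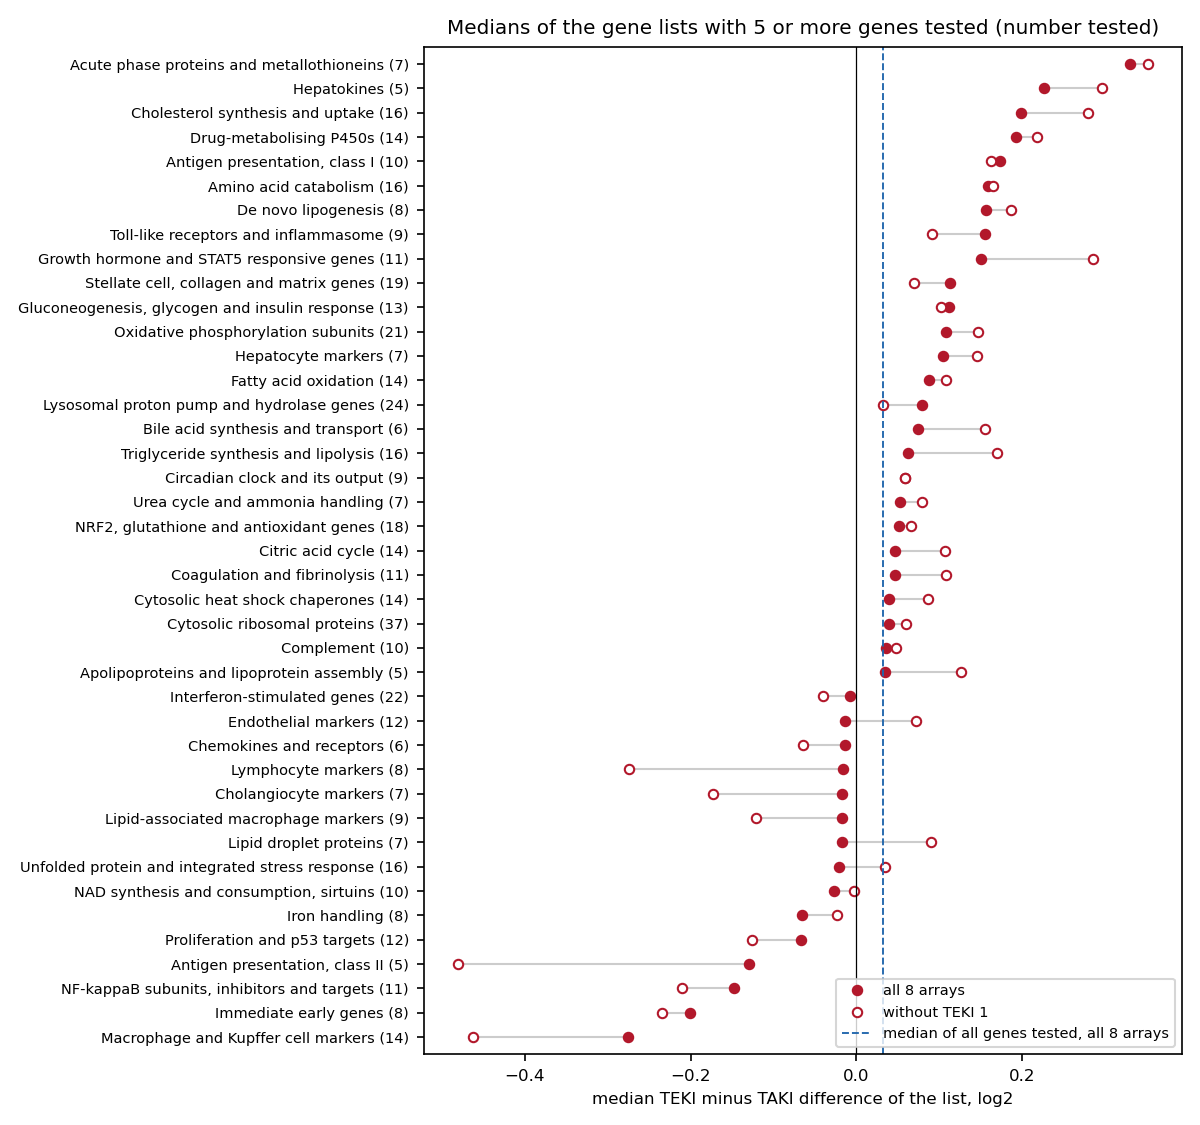
Median TEKI minus TAKI difference (log2, x axis) of each gene list with 5 or more genes tested, ordered by its value with all 8 arrays (filled) and joined to its value without TEKI 1 (open); the dashed line is the median of all genes tested. Most medians lie within 0.2 of 0, the macrophage list is lowest with all arrays (-0.28) and the class II list without TEKI 1 (-0.48), and the acute phase list is highest (0.33).

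No gene of antigen presentation passed, against 0.31% of all genes tested. *H2-K1*, a class I heavy chain, read 6.90, 6.96 and 6.92 in TEKI and 6.77, 6.76, 6.60, 6.49 and 6.56 in TAKI (0.29 ± 0.10, adjusted p = 0.515), with no overlap and all 3 probes above 0. *H2-Q10*, a class I-like protein that the liver secretes, read 8.01, 8.32 and 8.19 against 7.61 to 8.12 (0.30 ± 0.13, adjusted p = 0.662), and *Tapbp*, tapasin, 2.18 to 2.34 against 1.89 to 2.23 (0.19 ± 0.10; -0.06 with median scaling). Probes of class I genes can bind transcripts of their close relatives, so these values are uncertain as to the gene. In the list 6 of 10 were above 0 (median 0.17; 0.16 without TEKI 1; -0.08 with median scaling).

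Class II and macrophage genes spread widely within each genotype. *H2-Ab1* read 2.85, 2.83 and 0.76 in TEKI and 1.57, 3.41, 1.79, 2.55 and 2.06 in TAKI, and *H2-Aa* 1.41, 1.52 and -0.63 against 0.27, 2.11, 0.60, 1.20 and 0.75. TEKI 3 was lowest and TAKI 2 highest for both. The fitted differences, -0.13 ± 0.55 and -0.22 ± 0.54, were smaller than their errors, and both turned positive without TEKI 3 (0.56 and 0.48). In the class II list 2 of 5 were above 0 (median -0.13; -0.48 without TEKI 1; 0.54 without TEKI 3; 0.16 without TAKI 2).

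The same arrays stood out for macrophage genes. *Lyz2*, lysozyme of myeloid cells, read 3.20, 3.24 and 1.35 in TEKI and 2.32, 4.08, 3.41, 3.19 and 3.02 in TAKI (-0.61 ± 0.49, adjusted p = 0.753), and the Fc receptor chain *Fcer1g* 1.55, 1.62 and 0.54 against 0.81, 2.14, 1.48, 1.65 and 1.56 (-0.29 ± 0.32). *Trem2*, the receptor of lipid-associated macrophages, spread most, from -0.82 to 1.30 in TEKI and from -0.97 to 2.25 in TAKI (-0.60 ± 0.72). TEKI 3 and TAKI 1 were the lowest of their groups for all 3 genes. Of 14 macrophage and Kupffer cell genes 2 were above 0 (median -0.28; -0.46 without TEKI 1; -0.53 with median scaling). Without TEKI 3 the median was 0.06. In a bulk sample, fewer cells of a type and less RNA per cell cannot be told apart.

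Relative to the TAKI mean of each gene, the macrophage list stood at 0.11, 0.05 and -1.03 on TEKI 1 to 3 and at -0.67, 0.50, 0.01, 0.17 and -0.02 on TAKI 1 to 5. Lymphocyte genes stood at 0.41, 0.17 and -0.72 and at -0.20, 0.26, 0.02, -0.16 and -0.15. Drug-metabolising P450s stood at 0.12, 0.02 and 0.38 and at 0.23, -0.41, 0.25, -0.01 and -0.05, and growth hormone-responsive genes at 0.08, 0.06 and 0.42 and at 0.38, -0.40, 0.49, -0.44 and 0.01. On TEKI 3 and TAKI 1 these 2 hepatocyte lists lay above 0 and the macrophage list below, and on TAKI 2 the reverse; TAKI 3 and TAKI 4 differed in the growth hormone list while their macrophage values lay near each other. The groups overlapped in both hepatocyte lists. *Mup1*, a growth hormone-responsive major urinary protein whose probes can bind other members of its family and were in part saturated, read 8.41, 8.21 and 8.86 in TEKI and 8.58, 7.62, 8.67, 7.46 and 7.95 in TAKI (0.44 ± 0.30). *Coro1a*, of lymphocytes and other leukocytes, read 1.30, 1.61 and 0.17 against 0.90, 1.85, 1.11, 1.33 and 1.14, and the chemokine *Ccl5* 1.27, 0.85 and -0.40 against 0.28, 1.92, 0.80, 0.71 and 0.32. *Fabp4*, of adipocytes and some macrophages and endothelia, was low on TEKI 1 (1.03) and TAKI 1 (0.76) and read 1.82 to 3.53 elsewhere.

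**Figure D5:**
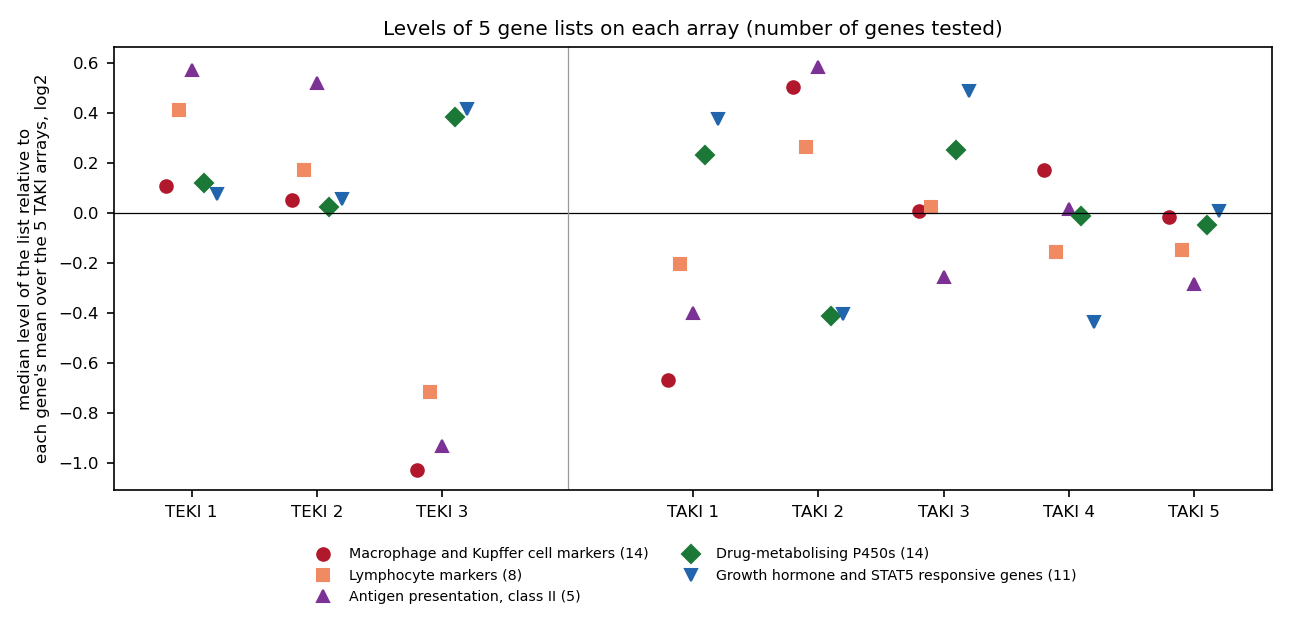
Median level of 5 gene lists on each array, relative to each gene's mean over the 5 TAKI arrays (log2, y axis), for the 3 TEKI and 5 TAKI arrays (x axis); symbols stand for lists. On TEKI 3 and TAKI 1 the macrophage, lymphocyte and class II lists lie below 0 and the P450 and growth hormone lists above it, and on TAKI 2 the order is turned.

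Acute phase genes, which hepatocytes make in inflammation, had 6 of 7 above 0 (median 0.33; 0.35 without TEKI 1; 0.08 with median scaling). Without TEKI 3 the median was -0.042. *Saa1*, serum amyloid A, read 6.72, 6.69 and 8.19 in TEKI and 5.43, 6.38, 6.47, 6.38 and 6.68 in TAKI (0.93 ± 0.38, adjusted p = 0.652; without TEKI 1 1.17). The groups met at 6.69 and 6.68 without overlapping, and TEKI 3 gave much of the difference. Wild type alone spanned 5.32 to 9.48. *Mt1*, a metallothionein, was also highest on TEKI 3 (2.59, 2.52 and 3.74 against 1.94 to 3.07; 0.35 ± 0.34, and -0.04 without TEKI 3). Complement had 6 of 10 above 0 (median 0.04; 0.05 without TEKI 1), with *C3*, which had a saturated probe on at least 1 array, at 4.78 to 5.30 against 4.34 to 5.01 (0.28 ± 0.18).

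NF-kappaB genes, whose RelA subunit is a known SIRT1 substrate, had 3 of 11 above 0 (median -0.15; 1 of 11 and -0.21 without TEKI 1). Among its 5 bright members the median had the other sign, 0.09 with 3 above 0. Without TEKI 1 the bright median was -0.21, with 1 above 0. *Rela* itself read 1.01, 1.19 and 1.23 in TEKI and 1.17, 1.09, 0.75, 0.73 and 0.82 in TAKI (0.23 ± 0.13, adjusted p = 0.7; -0.03 with median scaling), and its target *Junb* 3.99 to 4.94 against 4.39 to 5.13 (-0.28 ± 0.23). Interferon-stimulated genes were split, with 10 of 22 above 0 and a median of -0.01 (-0.04 without TEKI 1); *Ifitm2* read 2.55 to 2.71 against 2.53 to 3.03 (-0.11 ± 0.12).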

How the data were processed

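Total liver RNA was labelled with Cy3 and hybridised to single-colour Agilent whole-mouse-genome arrays, 1 mouse per array. For every spot the authors deposited a linear intensity that Agilent Feature Extraction 9.5 (version per the submitters' processing notes) had already background-subtracted, with arrays not scaled to each other (per the file headers). The series' value table repeats these intensities (largest difference 0).

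From these, control spots and spots with an outlier flag were left out, spots of a probe were averaged, and log2 of the intensity minus the array's 75th percentile was taken. Genes with 2 or more probes well above background on all 8 arrays were kept and their probes averaged. Of the 5155, 4548 were named by accession, 348 by symbol, 184 by synonym and 75 by the file's own name. The 3 TEKI and 5 TAKI arrays were fitted with limma 3.58.1 in R 4.3.3, genotype only, with Benjamini-Hochberg adjustment over all 5155 genes and a threshold of 0.05; the fit was tested on simulated data. p-values measure the spread between mice. The number of arrays limits the precision. 6 genes had a saturated probe.

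Genes were named by rule: those past the threshold with groups that did not overlap and the same direction without TEKI 1, filled by smallest p to 20; the same among bright genes with up to 16; up to 3 bright members of smallest p in each list; and *Sirt1*. *Mvk*, *Fdps*, *Insig1*, *Hmgcs1* and *Zfp326* were chosen after their values were seen. The genes compared, the lists and the rule were chosen with earlier results of these data known, so lists got no test; 476 of their 1507 symbols were tested. Alternatives changed the scaling, background correction, probe filter, probe summary, flags, variance model, array weights, slide or replicate block, rows and arrays used.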

Additional observations from a re-analysis of the deposited data

Results flagged for a closer look

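In 11 of 133 values examined, 1 of the 5 TAKI arrays lay apart from the other 4 (gap over range above 0.71 for 5 samples; chance gives about 1 in 20). Among genes, *Ppp1r12b* read -3.326 on TAKI 5 and -3.032 to -2.915 on the others. *Ldhd* read 2.119 on TAKI 1 and 1.515 to 1.682 on the others, and *Saa1* 5.435 on TAKI 1 and 6.376 to 6.68 on the others.

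Among gene lists, given as medians relative to the TAKI mean of each gene, ketone body production stood at 0.2252 on TAKI 3 and the NRF2 and glutathione list at -0.1273 on the same array. Lipid droplet proteins stood at -0.3379 and Toll-like receptors with the inflammasome at 0.1766 on TAKI 1. Glucuronosyltransferases and sulfotransferases stood at -0.4413 and iron handling at -0.1539 on TAKI 2. Red blood cell markers stood at -0.4277 on TAKI 4. The median local background was 50 on TAKI 2 and 58 to 60 on the other TAKI arrays.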

How the results depend on the processing

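All 16 called genes kept their direction under every alternative in which they were tested. Against 16 calls, 223 of 15887 genes passed with 1 or more probes, 0 with 3 or more, 35 with probes above background in 1 group, 26 with all 13 arrays, 7 with median scaling, 4 with probes in both row parts and 38 with slide as a random block. Leaving out 1 array gave 0 (without TEKI 3) to 12. Without TEKI 1, against 11 calls, 323 passed with 1 or more probes, 0 with 3 or more, 21 with the 75th percentile of probes above background, 63 with probes above background in 1 group, 20 with all 13 arrays, 4 with an intensity trend, 18 with the median of probes, 24 with median scaling, 0 with normexp background, 1 with probes in both row parts, 6 with probes of one direction, 21 with quantile normalization, 23 with row bands removed and 26 with slide as a random block. Leaving out 1 more array gave 0 to 13; a lone TEKI array is then assumed to vary like the other groups. The labels do not say whether the replicate numbers pair the mice. Deviations of same-numbered arrays correlated at 0.0654, 0.529 and 0.236, and those of differently numbered arrays at -0.533 to 0.459. With the replicate block 0 genes passed (293 at an unadjusted p under 0.05), and 59 without TEKI 1. Among bright genes 1 passed under each of 4 alternatives: *Zfp326* with probes above background in 1 group (0.82, adjusted p = 0.0246; 0.07 otherwise), *Id1* with median scaling, and *Fem1a* with normexp background and with slide as a random block. The other alternatives gave 0 bright calls.

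Median scaling turned *Ppargc1a* (-0.12), *Dgat2* (-0.0025), *Srebf2* (-0.078), *Hmgcs1* (-0.16), *Angptl6* (-0.0019), *Gsta3* (-0.070), *Tapbp* (-0.063) and *Rela* (-0.026), and 26 of 49 list medians; quantile normalization turned *Hmgcs1* (-0.18). With 1 array left out the difference took both signs for 10 genes: *Mt1* -0.042 (without TEKI 3) to 0.57 (without TEKI 2), *Hmgcs1* -0.090 (without TEKI 3) to 0.30 (without TEKI 1), *Fabp4* -0.85 (without TEKI 2) to 0.062 (without TEKI 1), *Junb* -0.47 (without TEKI 3) to 0.0043 (without TEKI 2), *Lyz2* -0.93 (without TEKI 2) to 0.014 (without TEKI 3), *Fcer1g* -0.48 (without TEKI 2) to 0.059 (without TEKI 3), *Ccl5* -0.58 (without TEKI 1) to 0.25 (without TEKI 3), *H2-Aa* -0.60 (without TEKI 2) to 0.48 (without TEKI 3), *H2-Ab1* -0.48 (without TEKI 1) to 0.56 (without TEKI 3) and *Coro1a* -0.53 (without TEKI 2) to 0.19 (without TEKI 3). Without TAKI 2 it also turned for *Ccl5* (0.044), *H2-Aa* (0.06) and *H2-Ab1* (0.16). The cause was not tested. Of the 49 list medians 6 kept their sign under every alternative and 23 without each array in turn. The median standard error was 0.14 for dim and 0.11 for bright genes.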

Other observations

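Other gene lists also held no called gene, against 0.31% of all genes tested. Stellate cell, collagen and matrix genes had 12 of 19 above 0 (median 0.11; 0.07 without TEKI 1) and endothelial markers 6 of 12 (median -0.01; 0.07 without TEKI 1). Lysosomal proton pump and hydrolase genes had 16 of 24 above 0 (median 0.08; 0.03 without TEKI 1). All 4 red blood cell genes tested were below 0 (median -0.15), and immediate early genes, which respond within minutes to stimuli, had 2 of 8 above 0 (median -0.20). Circadian clock genes had 5 of 9 above 0 (median 0.06), and on single arrays this list stood from -0.21 to 0.52 in TEKI and from -0.38 to 0.24 in TAKI.

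Deviations from the group mean were also correlated across genotypes, over all genes tested. The highest values were 0.529 between TEKI 2 and TAKI 2, 0.459 between TEKI 3 and TAKI 1 and 0.407 between TEKI 2 and TAKI 4. The lowest were -0.533 between TEKI 2 and TAKI 1 and -0.532 between TEKI 3 and TAKI 2. Deviations within a group sum to 0, so values of opposite sign are in part built in. These correlations are across genes, which are not independent replicates.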
